A study of Mus musculus with 4 samples.

Results

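ER-associated degradation (ERAD) genes were followed in pooled RNA of tibialis anterior muscle (TA, a fast muscle of the lower leg) and heart from MG56-knockout and wild-type mice. The 10 genes encode the Hrd1 ubiquitin ligase complex with its lectin (Herpud1, Syvn1, Sel1l, Os9), the EDEM proteins (Edem1, Edem2, Edem3) and the Derlins (Derl1, Derl2, Derl3). They were taken by gene symbol from 18193 genes that had a probe set of their own, and they held 24 of 34945 such probe sets. The mice had the genetic background C57BL/6J and were 9 days old. MG56, whose gene is also named Hhatl, sits in the reticulum membranes of heart and skeletal muscle. The 4 groups were knockout TA, wild-type TA, knockout heart and wild-type heart, each with 1 Affymetrix array. Per the series' design text each knockout pool came from 3 mice, and wild-type RNA was pooled too. How many wild-type mice were used, and the kind of knockout allele, were not stated in the labels used here. With 1 array a group there is no replicate error and no p-value, and each ratio compares pools of RNA.

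ERAD removes proteins that fail to fold in the endoplasmic reticulum (ER). Lectins and mannosidase-like EDEM proteins pick out glycoproteins that stay unfolded, and Sel1l hands them to Syvn1 (Hrd1), a ubiquitin ligase in the ER membrane. Derlins help the protein back through the membrane, and Herpud1 joins the complex and brings in further ubiquitin-binding factors. The ATPase p97 (Vcp) with its cofactors then pulls the protein out for the proteasome. Several ERAD genes are known targets of the unfolded protein response, through its transcription factors ATF6 and XBP1. In muscle the ER is largely specialised as the sarcoplasmic reticulum, which stores calcium.

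The targeted gene Hhatl had a signal of 1078 in knockout TA against 5491 in wild-type TA, and of 880 in knockout heart against 2110 in wild-type heart, on its 1 probe set. Whether that probe set reads the deleted part is unknown here. All 12 skeletal muscle markers lay above the floor in both TA pools, and all 12 heart muscle markers did so in both heart pools. The floor was the median of all signals, 101.3. It serves as the lower limit of measurement, and lower signals were raised to it before ratios were taken. The genotype pools of each tissue differed in Y-linked transcripts, with Uty 2.71-fold higher in knockout TA and 2.29-fold higher in knockout heart. Among markers of other cell types, the 6 neutrophil genes summed to a signal of 1231 in knockout and 464 in wild-type TA, and to 985 and 719 in heart. Of the 3 measured in TA, 2 were at least 1.5-fold higher. S100a8 alone gave 740 and 141 of the TA sums, and Camp, Ltf and Mpo stayed under the floor in both TA pools. The part of either difference in the ERAD results was not tested. Plasma and B cell markers summed to 986 in knockout and 1220 in wild-type TA, where 2 of 9 reached the floor in each pool. These 2 went opposite ways, Sdc1 with signals of 596 in knockout and 775 in wild-type TA, and Mzb1 with 152 and 107. In bulk tissue, fewer cells of a type and less RNA per cell cannot be told apart.

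In knockout TA, 6 of the 10 genes were at least 1.5-fold higher than in wild-type TA, namely Herpud1, Derl3, Syvn1, Sel1l, Derl2 and Derl1. Over all 11528 genes measured in TA, 4.19% were at least 1.5-fold higher. Of the 10 genes 4 were at least 2-fold higher, against 0.954% of all genes, and 0 were 1.5-fold lower, against 4.44%. With 10 genes, that count of 0 cannot be told from its share. The median log2 ratio of the 10 was 0.91, against -0.01 for all genes. In these counts a gene with several probe sets is represented by the brightest one, judged by the mean of its 4 signals. The 10 genes were chosen with earlier results of these data known, so the counts are not independent of that choice.

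**Figure D1:**
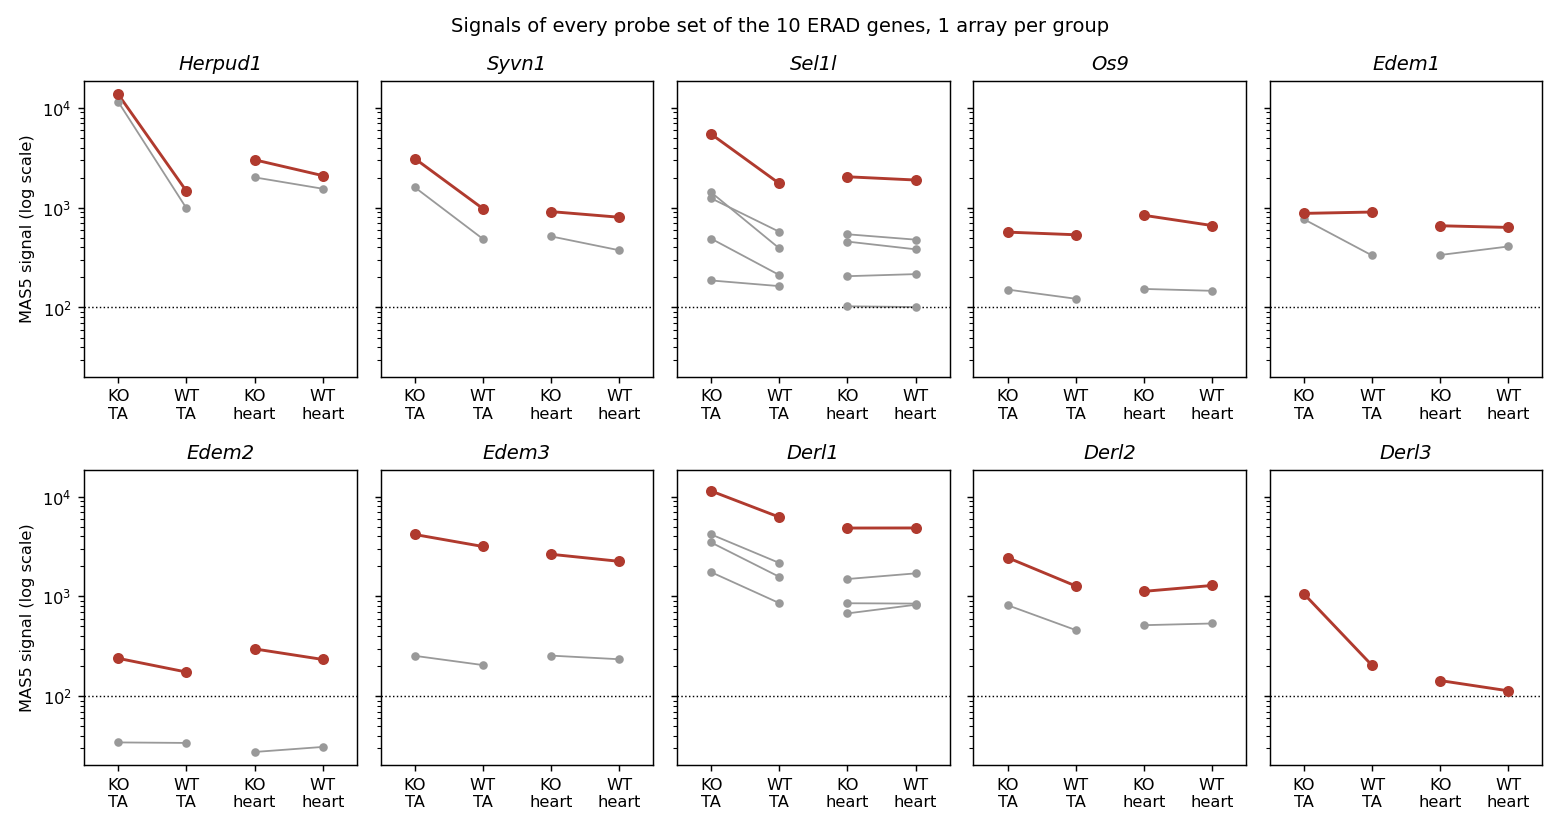
Signals of every probe set of the 10 genes on the 4 arrays (log axis), with the probe set that stands for the gene in red, other probe sets in grey and the floor as a dotted line. Knockout TA lies far above the other 3 arrays for Herpud1 (13623 against 1465 to 3019) and Derl3 (1059 against 113 to 203), while Os9 is highest in knockout heart (839).

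Within the Hrd1 complex, Herpud1 showed the largest ratio. Its signal was 13623 in knockout TA, 1465 in wild-type TA, 3019 in knockout heart and 2095 in wild-type heart. Knockout TA thus stood far above the other 3 arrays, and wild-type TA was the lowest of the 4. The ratio in TA was 9.30-fold, or 11.6-fold on the other probe set, on which signals were 11461 and 987. Herpud1 encodes a short-lived ubiquitin-like membrane protein that assembles with the ligase.

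Syvn1, the ubiquitin ligase itself, had signals of 3109 and 979 in knockout and wild-type TA and of 913 and 802 in knockout and wild-type heart. It was 3.18-fold higher in knockout TA, and 3.29-fold on its other probe set. Sel1l, the adaptor that stabilises Syvn1 and binds its clients, gave 5459 and 1748 in TA and 2040 and 1893 in heart, which is 3.12-fold higher in knockout TA. The wild-type TA and both heart signals of Sel1l lay close together. Of its 4 other probe sets, 3 were between 2.16-fold and 3.64-fold higher in knockout TA. The remaining one, with signals of 187 and 164 in TA and of 103 and 101 in heart, lay near the floor and was 1.14-fold higher.

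Os9, a lectin that brings glycoproteins with trimmed mannose to Sel1l, did not share this pattern. Its signals were 569 in knockout TA, 535 in wild-type TA, 839 in knockout heart and 662 in wild-type heart, so that both heart pools lay above both TA pools. The ratio in TA was 1.06-fold, and 1.24-fold on a dimmer probe set. Ligase and adaptor were thus around 3-fold higher in knockout TA, while the lectin of the same complex stayed within 1.5-fold.

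All 3 Derlins were higher in knockout TA. Derl3 gave 1059 in knockout TA, 203 in wild-type TA, 143 in knockout heart and 113 in wild-type heart, a 5.21-fold difference in TA from a wild-type level about 2 times the floor. It is known as the Derlin of secretory tissues, and its only probe set carried a low signal in the 3 arrays other than knockout TA. Derl1 had signals of 11374 and 6226 in TA and of 4839 and 4846 in heart, 1.83-fold higher in knockout TA, and its 3 other probe sets were between 1.93-fold and 2.21-fold higher. Derl2 had signals of 2445 and 1272 in TA and of 1123 and 1286 in heart, 1.92-fold higher in knockout TA and 1.77-fold on its other probe set. For Derl2 the wild-type TA and heart signals differed by 1.01-fold, and knockout TA alone stood apart.

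The EDEM genes differed less. Edem3 had signals of 4171 and 3161 in knockout and wild-type TA and of 2642 and 2245 in knockout and wild-type heart, and was 1.32-fold higher in knockout TA. Edem2 had signals of 239 and 175 in TA and of 298 and 233 in heart, 1.37-fold higher in knockout TA. Its other probe set stayed under the floor on all 4 arrays, with signals between 27.6 and 34.4, and gave no ratio.

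Edem1 gave different answers on its 2 probe sets. The brighter one had signals of 877 in knockout TA, 904 in wild-type TA, 659 in knockout heart and 634 in wild-type heart, which is 1.03-fold lower in knockout TA. The dimmer one had signals of 765, 332, 336 and 409 in the same order and was 2.31-fold higher. On the brighter probe set both TA pools were the highest arrays, whereas on the dimmer one wild-type TA was the lowest. Both are annotated to Edem1 alone and to the same source transcript, and which of them follows the gene's main transcript was not tested. Edem1 encodes the EDEM protein whose gene is a known XBP1 target in mouse cells.

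**Figure D2:**
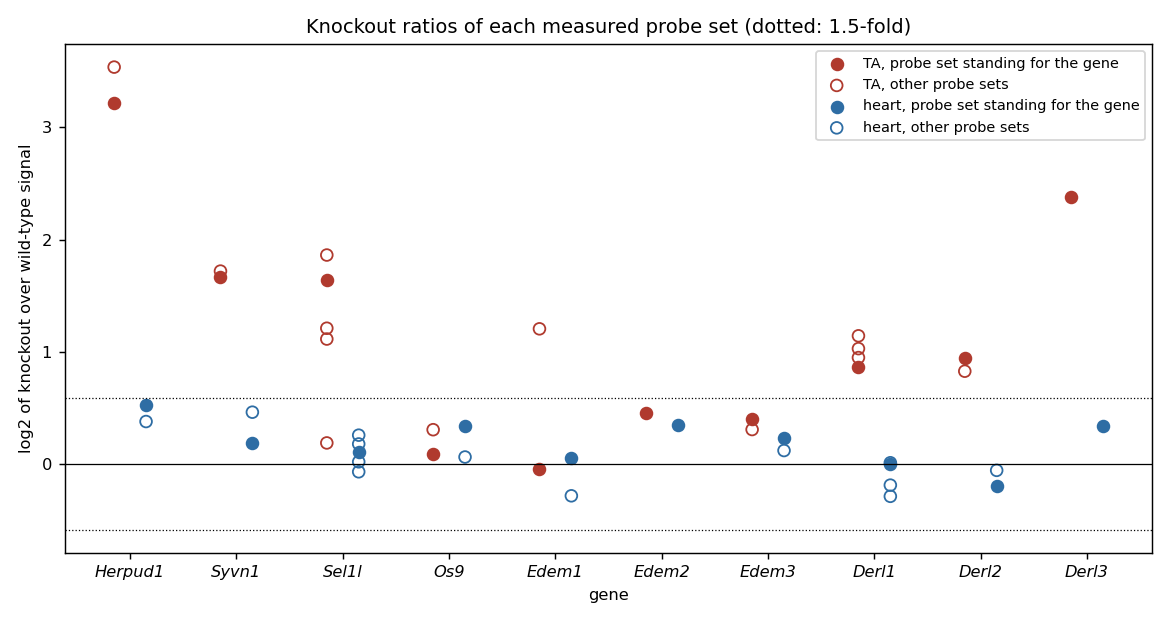
Log2 of knockout over wild-type signal for each of the 23 measured probe sets of the 10 genes, in TA (red) and heart (blue), with filled points for the probe set that stands for the gene and dotted lines at 1.5-fold. Of the 23, 16 lie above the upper line in TA and 0 in heart, and Edem1 has one TA point on either side of the line.

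Over probe sets, 16 of the 23 measured ones were at least 1.5-fold higher in knockout TA, against 4.46% of all 20165 probe sets measured in TA, and 22 lay above 0. The share of all probe sets above 0 was not counted. In heart 0 of 23 were at least 1.5-fold higher, against 3.73%, a share from which so small a count cannot be told. Probe sets of a gene share its transcripts and are not independent. For Herpud1, Syvn1, Derl1 and Derl2 each probe set was at least 1.5-fold higher in knockout TA.

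Promoter sequences were read beside these ratios because 6 of the genes were higher together. RefSeq promoters (GRCm38.p6, 250 bases before to 50 after each gene's start) were held for 9 of the 10 genes, all but Derl1. The ER stress response element ERSE, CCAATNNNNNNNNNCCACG, is bound by NF-Y at its CCAAT end and by ATF6 at its CCACG end. It was found on either strand in Syvn1 and Derl3, and in 0.119% of all 32851 promoters. ERSE-II, ATTGGNCCACG, was found in Herpud1 and in 0.0365% of promoters. The core of the CARE element of ATF4, TGATGNAA, was found in Herpud1 and in 3.97% of promoters. The core of the XBP1 element UPRE, TGACGTG, was in 2.01% of all promoters and in 0 of the 9 genes. No match in these genes overlapped another. A match is a stretch of letters and no measure of binding, and a missing match says only that these letters are not in this window. Whether any of these genes served to define the motifs was not checked, so a match may not be independent of the definition.

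The 250 bases before the start are printed 5′ to 3′ on the gene's strand for the 3 genes with an ERSE or ERSE-II and for Sel1l, which had no match although its ratio was close to that of Syvn1. Capitals mark the fixed letters of each match. In Herpud1 (chr8:94386179-94386428, plus strand) the ERSE-II lies 52 to 42 bases before the start, and the CARE core, on the opposite strand, 112 to 105 bases before it. In Syvn1 (chr19:6046326-6046575, plus strand) the ERSE lies 44 to 26 bases before the start. In Derl3 (chr10:75893148-75893397, plus strand) it lies on the opposite strand, 156 to 138 bases before the start. Sel1l is at chr12:91849158-91849407 on the minus strand.
Herpud1: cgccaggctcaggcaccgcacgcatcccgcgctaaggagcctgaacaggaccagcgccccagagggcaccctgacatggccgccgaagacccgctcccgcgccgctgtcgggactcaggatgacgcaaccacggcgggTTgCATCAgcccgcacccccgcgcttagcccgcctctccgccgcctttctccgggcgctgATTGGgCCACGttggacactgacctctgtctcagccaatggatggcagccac
Syvn1: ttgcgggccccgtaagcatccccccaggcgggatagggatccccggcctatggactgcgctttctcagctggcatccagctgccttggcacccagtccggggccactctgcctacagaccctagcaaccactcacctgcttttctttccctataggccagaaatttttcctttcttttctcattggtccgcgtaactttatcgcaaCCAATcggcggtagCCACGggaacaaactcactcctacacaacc
Derl3: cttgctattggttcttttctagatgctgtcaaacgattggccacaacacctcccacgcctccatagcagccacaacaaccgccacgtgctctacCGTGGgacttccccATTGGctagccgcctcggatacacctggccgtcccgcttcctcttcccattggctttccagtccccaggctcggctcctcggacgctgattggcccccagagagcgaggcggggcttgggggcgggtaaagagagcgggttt
Sel1l: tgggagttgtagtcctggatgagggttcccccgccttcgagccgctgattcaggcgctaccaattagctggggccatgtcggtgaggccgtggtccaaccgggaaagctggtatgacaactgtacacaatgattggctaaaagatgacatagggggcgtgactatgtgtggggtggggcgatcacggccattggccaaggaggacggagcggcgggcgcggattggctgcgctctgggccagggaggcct

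The 3 genes with an ERSE or ERSE-II were those with the 3 largest ratios of the 10 in TA, Herpud1 at 9.30-fold, Derl3 at 5.21-fold and Syvn1 at 3.18-fold. Sel1l followed closely at 3.12-fold, and one of its dimmer probe sets was at 3.64-fold. The other genes with a promoter and no match were Derl2, Edem1, Edem2, Edem3 and Os9, and the highest of their ratios was 1.92-fold, although the dimmer probe set of Edem1 was at 2.31-fold. With a floor at percentile 75 of all signals, above the wild-type signal of Derl3, its log2 ratio was 1.17 in place of 2.38. It was then below that of Sel1l, at 1.64, so the order of the 4 genes depends on the floor and on the probe set.

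In heart, 0 of the 10 genes reached a ratio of 1.5-fold upwards, against 2.67% of 11452 genes, and 0 were 1.5-fold lower, against 4.18%. With 10 genes, these counts cannot be told from those shares. The median log2 ratio of the 10 was 0.21, against -0.002 for all genes. Of the 10, 8 lay above 0, where 5691 of the 11452 genes did. Herpud1 had the largest ratio at 1.44-fold, on signals of 3019 and 2095, and 1.30-fold on its other probe set. Edem2 was 1.28-fold, Derl3 and Os9 both 1.27-fold and Edem3 1.18-fold higher in knockout heart. Syvn1 was 1.14-fold higher on the probe set that stands for it and 1.38-fold on the other. Derl2 was 1.15-fold lower and Derl1 1.002-fold lower. How far 2 heart pools of one genotype would differ was not measured.

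**Figure D3:**
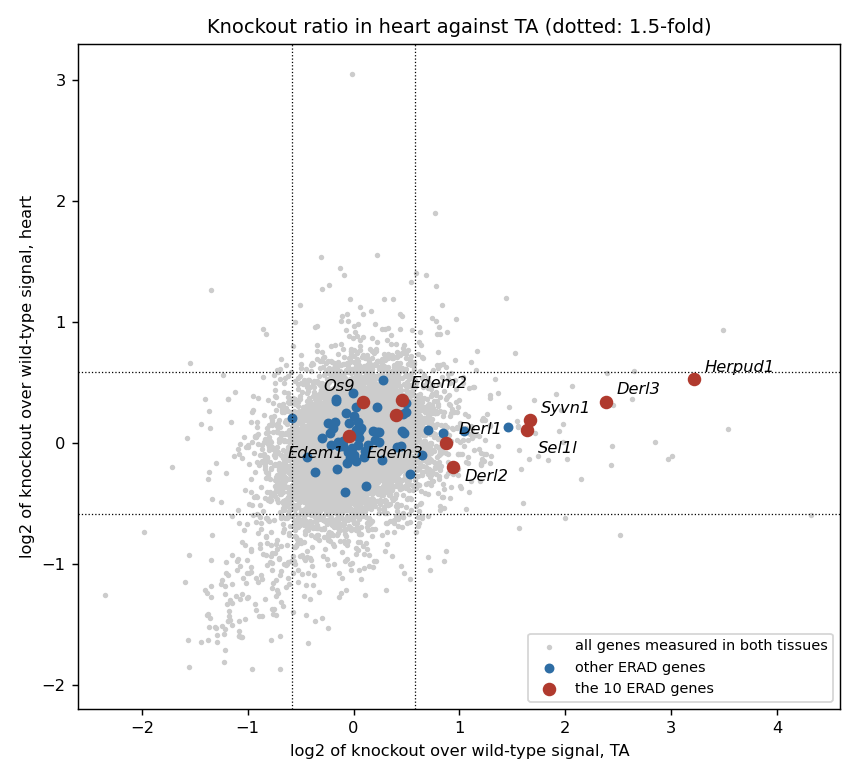
Log2 of knockout over wild-type signal in heart against TA, 1 point per gene, for the 10 genes (red), other ERAD genes (blue) and all genes measured in both tissues (grey), with dotted lines at 1.5-fold. Herpud1, Derl3, Syvn1, Sel1l, Derl2 and Derl1 lie beyond 1.5-fold in TA, and all 10 lie within 1.5-fold in heart.

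Set against each other, the knockout ratio was at least 1.5 times as large in TA as in heart for 6 of the 10 genes, against 6.44% of 10802 genes measured in both. The TA ratio divided by the heart ratio was 6.45 for Herpud1, 4.12 for Derl3, 2.90 for Sel1l, 2.79 for Syvn1, 2.20 for Derl2 and 1.83 for Derl1. It was 1.12 for Edem3, 1.08 for Edem2, 0.933 for Edem1 and 0.839 for Os9. Edem1 and Os9 thus had the larger ratio in heart, but on the dimmer probe set of each the TA ratio was the larger, by 2.81 times for Edem1 and 1.18 times for Os9. With 1 array per group the difference between the tissues was not tested.

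In the wild types, 9 of the 10 genes lay within 1.5-fold between TA and heart on the probe sets that stand for them. With 10 genes, the counts past that fold cannot be told from the shares of all genes given next. Derl3 was 1.80-fold higher in TA (203 against 113) and, on the probe sets that stand for the genes, the only one of the 10 past 1.5-fold, where 14.5% of 11872 genes were at least 1.5-fold higher in TA and 18.0% at least 1.5-fold lower. Their median log2 ratio of TA over heart was 0.14, with 5 above 0 and 5 below, against -0.07 for all genes. Edem1 was 1.43-fold and Edem3 1.41-fold higher in wild-type TA, while Herpud1 was 1.43-fold, Edem2 1.34-fold and Os9 1.24-fold higher in wild-type heart. On the dimmer probe set Edem1 was 1.23-fold higher in heart, opposite to the brighter one. Among dimmer probe sets, one of Derl1 was 1.85-fold and one of Sel1l, near the floor, at least 1.62-fold higher in wild-type TA, and that of Herpud1 was 1.57-fold higher in wild-type heart. On the probe sets that stand for them, Sel1l and Derl2 lay within 1.08-fold and 1.01-fold of each other in the wild-type tissues. This comparison shares its wild-type arrays with the knockout comparisons, so a low wild-type TA signal raises the knockout ratio in TA and lowers the ratio to heart. In knockout TA the signal was the highest of the 4 arrays for 7 of the 10 genes, the exceptions being Os9 and Edem2, highest in knockout heart, and Edem1, highest in wild-type TA. How many of all genes were highest in knockout TA was not counted.

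Other genes of the pathway were taken from a list of 71 ERAD genes, of which 68 had a probe set of their own and 63 were measured in each tissue. In knockout TA 5 of the 63 were at least 1.5-fold higher, against 4.19% of all genes, and 0 were 1.5-fold lower, against 4.44%. Counts this small cannot be told from those shares. Their median log2 ratio was 0.02, and 58 of the 63 lay within 1.5-fold, while the 10 genes above had a median of 0.91. This contrast holds for the genes listed, and the list leaves out Dnajb9, an ER co-chaperone gene 6.28-fold higher in knockout TA. The 10 genes and the list were chosen with earlier results of these data known, so the contrast is not independent of these values. Whether another choice of ERAD genes would give the same contrast was not tested. Selenos, a selenoprotein of the ER membrane that links p97 to the Derlins, had signals of 9332 in knockout TA, 3385 in wild-type TA, 2973 in knockout heart and 2719 in wild-type heart, and was 2.76-fold higher in knockout TA. Selenok, a small membrane selenoprotein that binds Derlins, was 2.07-fold higher, on signals of 8035 and 3891. Txndc11, a thioredoxin-domain ER protein, was 1.80-fold higher, Ubxn4, an ER membrane protein that binds p97, 1.63-fold, and Ube4a, which lengthens ubiquitin chains, 1.57-fold. Each further measured probe set of Selenos, Selenok, Ubxn4 and Ube4a was higher in knockout TA as well.

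Of the 63 genes measured in TA, 36 lay above 0 and 27 below. Values of further genes of the list were read without a count of their own. Those named next lay above 0 in TA apart from Svip, so they do not represent the list. Vcp, the p97 ATPase, had signals of 14022 and 13984 in knockout and wild-type TA, and its cofactor genes Ufd1 and Nploc4 were 1.01-fold and 1.37-fold higher. The ubiquitin-conjugating enzyme genes Ube2j1 and Ube2g2 were 1.10-fold and 1.45-fold higher. Erlec1, a lectin akin to Os9, was 1.18-fold higher and the Herpud1 paralogue Herpud2 1.38-fold higher. The further measured probe set of Ufd1 did not share its direction, and of 2 such probe sets of Erlec1 1 did. Svip, an inhibitor of ERAD that binds p97, was 1.496-fold lower, just short of 1.5-fold. In heart 0 of the 63 passed 1.5-fold in either direction, where 2.67% of all genes were higher and 4.18% lower. Such counts cannot be told from those shares. The median of the 63 was 0.04, and Aup1, which recruits a conjugating enzyme to the Hrd1 complex, had the largest ratio at 1.43-fold higher.

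**Figure D4:**
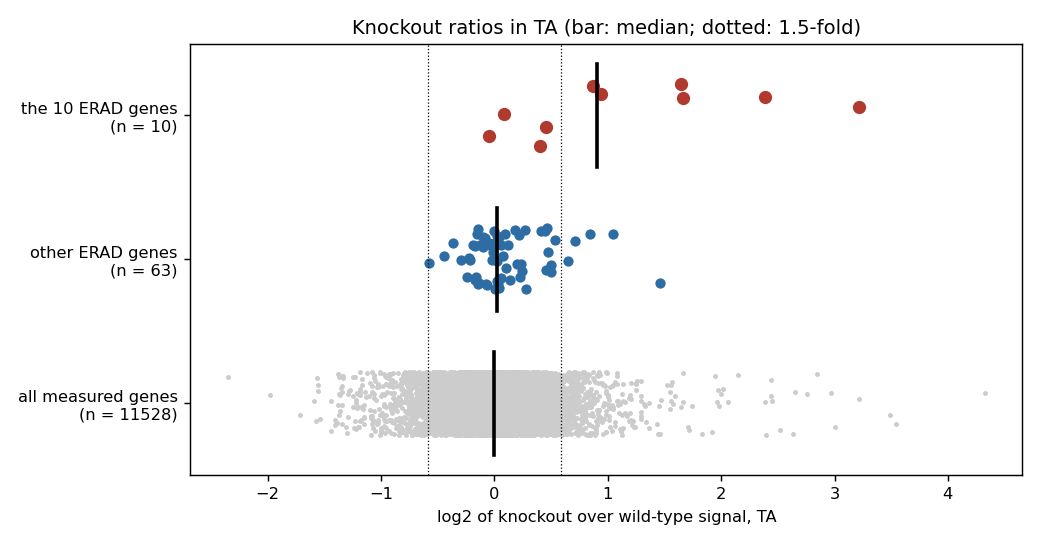
Log2 of knockout over wild-type signal in TA for the 10 genes, the 63 other ERAD genes and all 11528 measured genes, 1 point per gene with random vertical spread, bars at the medians and dotted lines at 1.5-fold. The medians are 0.91, 0.02 and -0.01. The 10 genes and the list of others were chosen with earlier results of these data known.

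Patterns over the 4 arrays were compared as the Euclidean distance between log2 signals, each gene centred on its own mean, among 7470 genes other than Herpud1 with a mean signal of at least 4 times the floor. The 5 genes nearest to Herpud1 were Trib3 (distance 0.35), Dnajb9 (0.41), Pdia4 (0.69), Creld2 (0.75) and Manf (0.76). Dnajb9, an ER co-chaperone gene, was 6.28-fold higher in knockout TA and 1.51-fold higher in knockout heart. Trib3, a pseudokinase gene, was at least 11.2-fold higher in TA, its wild-type signal of 80.6 lying under the floor, and 1.91-fold higher in heart. Pdia4, Creld2 and Manf were 7.82-fold, 11.6-fold and 7.18-fold higher in TA. In heart Pdia4 was at a ratio of 0.912, Creld2 at 1.08 and Manf at 1.004. Derl3 and Edem2 were too dim to be among the 7470. Of the 7 others of the 10, Syvn1 and Sel1l were nearest to Herpud1, at places 14 and 15.

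The 5 genes nearest to the median pattern of the 10 were Ostc (0.12), Cdk5rap3 (0.19), Xpot (0.19), Atf4 (0.20) and Snhg12 (0.20). Ostc, which encodes a subunit of the oligosaccharyltransferase, was 2.01-fold higher in knockout TA and had a ratio of 1.004 in heart. Atf4, the transcription factor gene of the integrated stress response, was 1.79-fold higher in TA and 1.17-fold in heart. With 4 arrays such distances describe these pools and carry no test. Derl2 and Derl1 lay at places 17 and 19, while Herpud1, at a distance of 1.58, was far from the pattern of the group it belongs to. Derl2 and Derl1 are among the 10 genes whose median is the pattern, so their closeness to it is partly built in.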

How the data were processed

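RNA was extracted and labelled as biotin cRNA per the labels, and hybridised to 4 arrays. The authors deposited linear signal intensities, 1 for each probe set and array, and the submitters' processing notes name MAS5. No version, scaling target or detection call was at hand. After 2% of the signals were trimmed from either end, the array means lay between 496.35 and 496.83, so no further scaling was applied. Precision is limited by the number of arrays.

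Probe sets with 1 symbol in the platform's annotation were used (34945 of 45037), and all 10 genes matched a RefSeq gene by identifier. Signals were floored at their median, a gene was measured where an array compared reached the floor, and log2 ratios were taken. Folds of 1.5 and 2 were counted, and no test was run. Genes named outside the 10 were ERAD genes past 1.5-fold and the 5 nearest patterns each; Vcp, Ufd1, Nploc4, Ube2j1, Ube2g2, Erlec1, Herpud2, Svip and Aup1 were chosen after their values were seen. Clone names were passed over among patterns. The 10 genes and the lists were chosen with earlier results of these data known. The computation, in Python 3.11.15 with pandas 2.3.3, was tested on simulated data.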

Additional observations from a re-analysis of the deposited data

Results flagged for a closer look

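For 3 of the 10 genes the single knockout ratios of TA and heart pointed in opposite directions, and with 1 array per group none of these differences was tested. Over all genes, 5616 lay above 0 and 5907 below in TA, and 5691 and 5755 in heart. How many genes had opposite signs was not counted, so 3 of 10 cannot be called unusual. The log2 ratio of Derl2 was 0.94 in TA and -0.20 in heart, a difference of 1.14. That of Derl1 was 0.87 in TA and -0.002 in heart, a difference of 0.87, and the heart value is practically 0. That of Edem1 was -0.04 in TA and 0.06 in heart, a difference of -0.10, on the brighter of its 2 probe sets. On the dimmer probe set of Edem1 the values were 1.21 and -0.28.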

How the results depend on the processing

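No paired analysis was possible because each group has 1 array. The 10 alternatives were other scalings, floors and probe set rules and, for counts, a 2-fold limit. The count of 6 genes higher in knockout TA was 4 at 2-fold and 6 under each other alternative, and the counts of 0 in heart and of 0 lower in TA did not move. The median of the 10 in TA ran from 0.906 to 0.946. Between the wild-type tissues, the count of 1 higher gene became 0 with a floor at percentile 75 and 0 at 2-fold. The median difference between the tissues was 1.005, and 1.14 without probe sets whose names end in _s_at or _x_at. Of the other ERAD genes, 5 were higher in knockout TA, but 3 with a floor at percentile 75, where 54 were measured, and 2 at 2-fold. The 0 that were lower became 1 with quantile normalization within each tissue and 1 with no floor. In heart their 0 higher became 3 with no floor, and their 0 lower became 1 with a floor at percentile 25 and 1 with none. Among single genes, the log2 ratio of Edem1 in TA was -0.04, and 0.58 as the median over its probe sets, while that of Sel1l was 1.64 and 1.21. That of Derl3 in TA was 2.38, and 1.17 with a floor at percentile 75, above its wild-type signal. No called ratio changed its sign. Signals near the floor limit Derl3 in heart and Edem2.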

Other observations

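After the promoters of Herpud1, Syvn1 and Derl3 had been read, the same letters were counted over all measured genes. Of 15 genes with an ERSE in the promoter window and measured in TA, 11 were at least 1.5-fold higher in knockout TA, against 4.19% of all genes, and their median log2 ratio was 1.67. Without Syvn1 and Derl3 it was 9 of 13, with a median of 1.25. These 9 were Creld2, Dnajc3, Pdia6, Ero1b, Hspa5, Hsp90b1, Calr, Alg12 and Canx, most of which encode chaperones and folding enzymes of the ER. In heart, where 2.67% of all genes were at least 1.5-fold higher and 4.18% lower, 0 of the 15 passed 1.5-fold in either direction, around a median of 0.16; counts this small cannot be told from those shares. Of 8 genes with an ERSE-II, 4 were higher in knockout TA, against the same 4.19%, namely Herpud1, Dnajb11, Krtcap2 and Nucb1, with a median of 0.62, and without Herpud1 it was 3 of 7 with a median of 0.58. In heart 0 of these 8 passed 1.5-fold, which again cannot be told from the heart shares. The genes were named after their values were seen, and no test was run. Whether any of them served to define the motif letters was not checked, so these counts may not be independent of that definition.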
